A study of Homo sapiens with 6 samples.

Results

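Integrins are heterodimers of an alpha and a beta chain that bind matrix proteins outside the cell and, through their tails, a layer of scaffold proteins tied to actin. Talins and kindlins switch the receptors on, vinculin, alpha-actinin and tensins couple them to actin, and the kinases FAK and SRC signal from the same sites, which are called focal adhesions. In glioma, this machinery is known for its part in the migration of tumour cells. The genes described here are 50 that encode integrin chains, other matrix receptors and the scaffold and signalling proteins of focal adhesions, out of 19775 genes with a probe set of their own on the array. They were listed by name, and each was represented by the probe set with the highest mean over the 6 arrays. Of the 50, 47 had such a probe set, and 45 passed the filter on dim signal that left 12381 genes. ITGA1 and LIMS1 were too dim on all 6 arrays to be tested. The probe sets of DDR1 also carried another symbol, and DAG1 and CRK were not analysed here. A further pair of LIMS1 probe sets shared with other symbols was not used either.

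The cells were U251, an established human glioma line, cultured for 24 h in medium with 10% serum on 60 mm dishes coated with electrospun poly-caprolactone nanofibers. In the aligned group the fibers were highly aligned, and in the random group they were randomly oriented. Each group had 3 arrays, 1 per culture, described as independent cultures. Both groups share the line, the polymer and the medium, and no culture on a flat surface was among them. Values are log2 RMA signals per probe set. A level of one probe set cannot be set against that of another, and in these bulk samples fewer expressing cells and less RNA per cell cannot be told apart.

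The arrays were not equally spread. Over all 12381 genes, aligned 3 lay 0.38 log2 units (root mean square) from the mean of the random arrays, aligned 2 lay 0.19 and aligned 1 lay 0.17 from it. Each random array lay between 0.13 and 0.19 from the mean of the other 2, so aligned 1 and aligned 2 were within that range. Over the 45 adhesion genes the distances of aligned 3, 2 and 1 were 0.59, 0.27 and 0.21. There each random array lay between 0.14 and 0.27 from the mean of the other 2. A mean of 2 arrays and a mean of 3 are not fully alike as a reference. Of 9 astroglial and glioma markers, 8 passed the filter, and VIM, NES, CD44 and SOX2 were above the array median on all 6 arrays, while GFAP was so on 3 and S100B on 2. All 8 tested markers read lower on aligned fibers, 2 of them at an unadjusted p under 0.05 and 0 past the adjusted threshold. Their summed linear signal, with S100B, lay between 29530 and 39421 on aligned fibers and between 39150 and 41875 on random fibers. The sum over 6 neuronal markers lay between 600.5 and 655.8 on aligned and between 523.9 and 581.8 on random fibers, with 1 of 6 (SYT1) higher at that limit. The sum over 7 microglial and leukocyte markers lay between 221.7 and 232.1 on aligned fibers, against 199.8 to 218.5 on random fibers. That over 6 fibroblast and pericyte markers lay between 938.5 and 1685 on aligned fibers, against 1610 to 1860 on random fibers. The part of these markers in the differences below was not tested. Of 6 epithelial markers 0 passed the filter, of 7 microglial and leukocyte markers 1 did, and PTPRC and EPCAM were below the median on every array. The epithelial sum also lay higher, between 146.6 and 156.5 on aligned fibers, against 138.4 to 148.2 on random fibers. The epithelial and the microglial and leukocyte sums thus hold dim signal of probe sets that did not pass. All 6 neuronal markers passed the filter, as did 5 of the 6 fibroblast and pericyte markers. Of 6 endothelial markers 3 passed it, with PECAM1 above the median on 6 arrays, VWF on 4, KDR on 3 and CDH5, CLDN5 and TEK on 0. Their sum lay between 272.4 and 321.3 on aligned fibers, against 262.1 to 290.4 on random fibers.

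No adhesion gene passed the test after correction for all genes, and 11 of the 45 had an unadjusted p under 0.05. Higher on aligned fibers were the collagen receptor DDR2, the matrix receptor ANTXR2, the alpha chains ITGA5 and ITGA3, and the scaffold proteins TNS1, ZYX and PXN. Lower were the beta chains ITGB4 and ITGB8, the alpha chain ITGAV and the scaffold NEDD9. The lowest adjusted p of the 45 was 0.463 in limma, and 0 of 12381 genes (0%) passed the adjusted threshold of 0.05. At an unadjusted p under 0.05 there were 11 adhesion genes (24.4%), against 10.5% of all genes. Of them 7 were higher (15.6%) and 4 lower (8.89%), against 4.72% and 5.81% of all genes. The 3 aligned values lay above all 3 random values in 7 adhesion genes (15.6%) and below them in 4 (8.89%), against 8.71% and 9.33% of all genes. The share of adhesion genes at the unadjusted limit was above the background in this fit, while the share that lay below without overlap was near it. In an ordinary two-sample test 2 of the 45 reached the limit, a share below the 6.74% of all genes. The count of 11 moved when single arrays were left out. Leaving out aligned 3 gave 6 of the 45 genes, against 6.58% of all genes. Leaving out random 2 gave 4, against 5.97%, and leaving out random 3 gave 5, against 5.04%. With the replicate number as a block there were 10 of the 45, against 13.6% of all genes.

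The median log2 difference, aligned minus random, was 0.06 over the 45 genes and 0.01 over all genes. A positive difference was found in 31 of the 45 (68.9%), against 52.5% of all genes. Single random arrays varied as much in this median. Aligned 1 to 3 lay a median of 0.04, 0.04 and 0.09 above the mean of the random arrays. Against the mean of the other random arrays, random 1 lay at 0.09, random 2 at 0.02 and random 3 at -0.12. A difference of at least 1.5-fold was found in 5 (11.1%), against 2.27% of all genes, and these were DDR2, ITGB3, ITGB4, ITGB8 and NEDD9. For 34 of the 45 (75.6%) the 95% interval of the difference in the limma fit lay inside 1.5-fold in both directions, against 87.3% of all genes. RNA differences beyond 1.5-fold thus lay outside the intervals for the genes of talins, vinculin, both alpha-actinins, FERMT2 and ILK. Protein amounts were not measured. The intervals rest on the spread between 3 cultures per group after limma shrank it toward that of all genes. The SE of ITGB4 was 0.29 there, against 0.39 in the ordinary two-sample test, and that of ILK 0.07 against 0.04. The intervals are not adjusted for the number of genes.

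**Figure D1:**
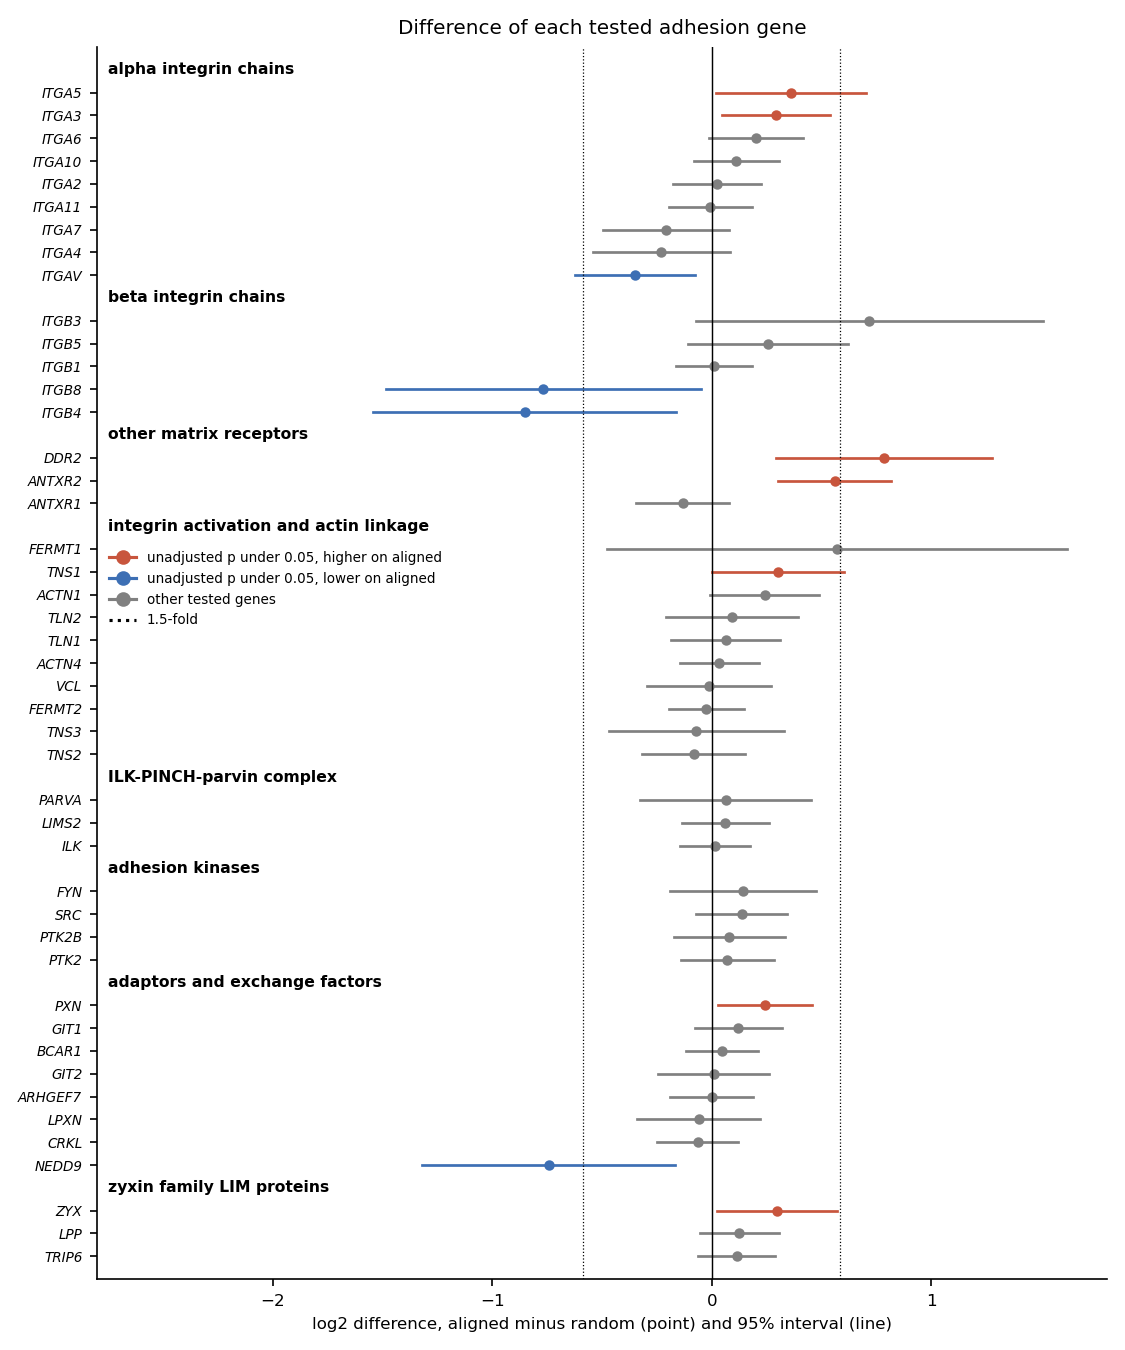
Log2 difference, aligned minus random, of the 45 tested adhesion genes (points) with 95% intervals from limma (lines), grouped by role, 3 arrays per group. Red and blue mark an unadjusted p under 0.05, and dotted lines mark 1.5-fold. The widest intervals belong to FERMT1, ITGB3, ITGB4 and ITGB8.

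Among the beta chains, ITGB4 and ITGB8 were lower on aligned fibers. ITGB4 pairs with the alpha 6 chain as a laminin receptor. Its probe set read 8.99, 8.89 and 7.83 log2 units on aligned fibers 1 to 3, against 9.49, 9.59 and 9.17 on random fibers 1 to 3. The difference was -0.85 ± 0.29 (SE, limma adjusted p = 0.463), or 1.81-fold higher on random fibers. All aligned values lay below the random ones, with aligned 3 far below the other two. ITGB8 pairs with the alpha v chain and is known for activating latent TGF-beta. ITGB8 read 10.22, 9.86 and 8.86 log2 units on aligned fibers 1 to 3, against 10.47, 10.47 and 10.31 on random fibers 1 to 3. The difference of -0.77 ± 0.31 (SE, limma adjusted p = 0.472) again had no overlap between groups, and aligned 3 again stood lowest. Without aligned 3 the differences were -0.48 for ITGB4 and -0.37 for ITGB8.

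ITGB3 and ITGB5, which pair with the alpha v chain as vitronectin receptors, had positive differences that did not pass. ITGB3 read 7.61, 7.44 and 8.47 log2 units on aligned fibers 1 to 3, against 7.71, 7.06 and 6.60 on random fibers 1 to 3. The groups overlapped, since random 1 lay above aligned 1 and aligned 2. The difference was 0.72 ± 0.34 (SE, 95% interval -0.07 to 1.51), and 0.40 without aligned 3. ITGB5 read 9.92, 9.90 and 10.22 log2 units on aligned fibers 1 to 3, against 10.03, 9.78 and 9.46 on random fibers 1 to 3. Its difference was 0.26 ± 0.16 (SE), with random 1 again above aligned 1 and aligned 2, and 0.15 without aligned 3 or 0.11 without random 3. ITGB1, the partner of most alpha chains, lay close together on all 6 arrays. ITGB1 read 12.38, 12.27 and 12.29 log2 units on aligned fibers 1 to 3, against 12.38, 12.27 and 12.26 on random fibers 1 to 3. The difference was 0.01 ± 0.07 (SE) with an interval of -0.16 to 0.18.

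Of the 9 tested alpha chains, 2 were higher and 1 lower at the unadjusted limit, and 0 passed after adjustment in limma. ITGAV, the alpha v chain shared by the beta chains 3, 5 and 8, was lower. ITGAV read 10.68, 10.51 and 10.22 log2 units on aligned fibers 1 to 3, against 10.82, 10.83 and 10.81 on random fibers 1 to 3. The random arrays lay within 0.01 (SD) of each other, and all 3 aligned arrays lay below them. Its difference was -0.35 ± 0.12 (SE, limma adjusted p = 0.463), and -0.22 without aligned 3. ITGAV and ITGB8, which form one receptor, thus both lay lower, whereas ITGB3 and ITGB5, which form others with ITGAV, had differences of the opposite sign.

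ITGA5 pairs with ITGB1 as the classical fibronectin receptor. ITGA5 read 8.68, 8.85 and 9.17 log2 units on aligned fibers 1 to 3, against 8.75, 8.42 and 8.44 on random fibers 1 to 3. Aligned 1 lay below random 1, so the groups overlapped, and the difference was 0.36 ± 0.15 (SE), or 0.23 without aligned 3. With the replicate number as a block ITGA5 did not reach the unadjusted limit (limma adjusted p = 0.368). ITGA3 pairs with ITGB1 as a laminin receptor. ITGA3 read 10.59, 10.66 and 10.85 log2 units on aligned fibers 1 to 3, against 10.58, 10.33 and 10.32 on random fibers 1 to 3. The groups did not overlap, but aligned 1 and random 1 lay only 0.02 apart, and the difference was 0.29 ± 0.10 (SE). Both had an adjusted p above 0.45 in limma. The laminin-binding chain ITGA6, the partner of ITGB4, differed by 0.20 ± 0.09 (SE), opposite in sign to ITGB4. The other tested chains differed by -0.23 ± 0.13 for ITGA4, -0.21 ± 0.12 for ITGA7, 0.11 ± 0.08 for ITGA10, 0.02 ± 0.09 for ITGA2 and -0.01 ± 0.08 for ITGA11. The value of ITGA7 was -0.07 without aligned 3. ITGA2, ITGA10 and ITGA11 bind collagen with ITGB1, ITGA7 binds laminin, and ITGA4 binds fibronectin and VCAM1. ITGA1, also a collagen-binding chain, read between 4.17 and 4.55 over the 6 arrays and was not tested.

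The matrix receptors outside the integrin family had 2 of 3 tested members higher on aligned fibers at the unadjusted limit. DDR2 is a receptor tyrosine kinase that fibrillar collagen activates. DDR2 read 8.36, 8.45 and 8.97 log2 units on aligned fibers 1 to 3, against 8.18, 7.71 and 7.52 on random fibers 1 to 3. All aligned values lay above the random ones, with aligned 3 highest and random 3 lowest. The difference was 0.79 ± 0.21 (SE, limma adjusted p = 0.463), or 1.72-fold, and 0.60 without aligned 3. ANTXR2, a receptor for anthrax toxin that binds laminin and collagen IV, had the smallest p of the 45 genes. ANTXR2 read 8.44, 8.49 and 8.81 log2 units on aligned fibers 1 to 3, against 8.08, 8.04 and 7.94 on random fibers 1 to 3. Its random values lay within 0.07 (SD) of each other and the gap to the lowest aligned value was wider than that spread. The difference was 0.56 ± 0.11 (SE, limma adjusted p = 0.463), or 1.47-fold. The related ANTXR1 read 10.13, 10.24 and 10.28 log2 units on aligned fibers 1 to 3, against 10.31, 10.49 and 10.24 on random fibers 1 to 3. Its groups overlapped, and the difference had the other sign, at -0.13 ± 0.09 (SE). On the 1 probe set used for each, DDR2 and ANTXR2 were also the 2 genes that stayed under the unadjusted limit in every single-array omission. They did so in an ordinary two-sample test as well.

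The promoter windows of DDR2 and ITGB8 are shown because these genes had the largest difference in each direction among those with a window in the RefSeq table (GRCh38.p14). Each window runs from 250 bases before to 50 after an annotated start, 5′ to 3′ on the gene's strand. Capitals mark matches to the AP-1 motif TGANTCA, the TEAD motif GGAATG, the GC box GGGCGG and the CArG box of SRF, searched on both strands. The DDR2 window is chr1:162630613-162630912 (+), the most upstream of 3 listed for the gene, and the ITGB8 window is chr7:20330650-20330949 (+).
DDR2: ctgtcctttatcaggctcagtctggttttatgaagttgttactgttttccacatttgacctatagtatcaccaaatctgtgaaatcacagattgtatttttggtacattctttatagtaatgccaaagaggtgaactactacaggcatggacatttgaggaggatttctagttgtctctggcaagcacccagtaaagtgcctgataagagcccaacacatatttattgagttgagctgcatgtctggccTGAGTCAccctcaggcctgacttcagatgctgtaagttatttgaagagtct
ITGB8: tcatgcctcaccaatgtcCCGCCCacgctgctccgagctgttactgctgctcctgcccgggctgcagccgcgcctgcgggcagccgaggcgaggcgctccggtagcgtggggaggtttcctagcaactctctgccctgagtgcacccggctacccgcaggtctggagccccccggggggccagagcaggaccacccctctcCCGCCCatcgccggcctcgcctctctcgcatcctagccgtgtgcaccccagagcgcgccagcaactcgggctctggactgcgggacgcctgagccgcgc
The DDR2 window held 1 AP-1 match and the ITGB8 window 2 GC boxes. Of the 11 genes at the unadjusted limit, 9 had windows, 20 in all. AP-1 letters occurred in 2 of the 20 (10.0%), against 7.71% of all 35116 windows. TEAD letters occurred in 4 (20.0%), against 14% of all windows. GC boxes occurred in 9 (45%), against 45% of all windows, and CArG boxes in 0, against 1.29%. The 2 printed windows held no match to the other motifs. A match is a run of letters and says nothing of binding, and windows of 1 gene are not independent.

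**Figure D2:**
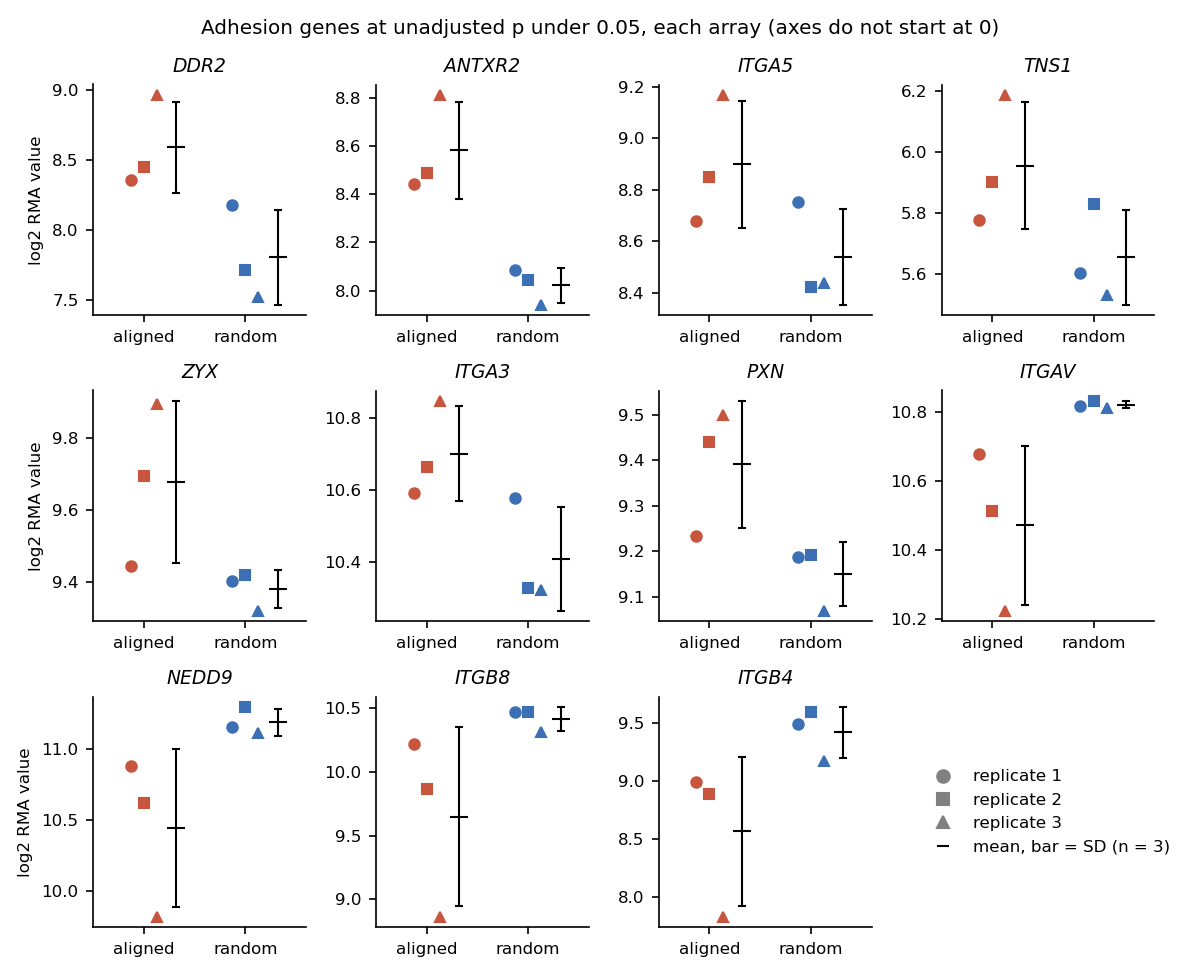
Log2 RMA value on each array for the 11 adhesion genes at an unadjusted p under 0.05, aligned at left and random at right, with the mean and SD (n = 3). Symbols give the replicate number. Aligned 3 is the highest array in the 7 genes higher on aligned fibers and the lowest in the 4 lower ones, and the groups overlap in ITGA5 and TNS1.

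Among the genes of 10 proteins that activate integrins or tie them to actin, 1 reached the unadjusted limit and 0 passed after adjustment in limma. Talin opens the integrin and vinculin locks it to actin. TLN1 read 8.47, 8.28 and 8.36 log2 units on aligned fibers 1 to 3, against 8.13, 8.32 and 8.48 on random fibers 1 to 3. The aligned values lay inside the range of the random ones, and the difference was 0.06 ± 0.11 (SE). VCL read 11.98, 11.85 and 11.78 log2 units on aligned fibers 1 to 3, against 12.06, 11.96 and 11.64 on random fibers 1 to 3. Here too the groups overlapped, with a difference of -0.01 ± 0.12 (SE). The second talin, TLN2, differed by 0.09 ± 0.13. The alpha-actinins crosslink actin, and ACTN1 had no overlap between groups at 0.24 ± 0.11 (SE), or 0.15 without aligned 3, whereas ACTN4 differed by 0.04 ± 0.08.

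Tensins bind the tails of beta chains. TNS1 read 5.78, 5.90 and 6.19 log2 units on aligned fibers 1 to 3, against 5.60, 5.83 and 5.53 on random fibers 1 to 3. Aligned 1 lay below random 2, and the difference was 0.30 ± 0.13 (SE), or 0.19 without aligned 3. With the replicate number as a block TNS1 was not at the unadjusted limit (limma adjusted p = 0.365). The signal of TNS1 was dim, above the array median on 4 of the 6 arrays. Its second kept probe set went the other way, at -0.07. TNS2 read 6.24, 6.05 and 6.05 log2 units on aligned fibers 1 to 3, against 6.36, 6.12 and 6.10 on random fibers 1 to 3. Its groups overlapped at -0.08 ± 0.10 (SE), and TNS3 differed by -0.07 ± 0.17. The kindlins assist talin. FERMT2 differed by -0.02 ± 0.07 (SE), within an interval of -0.20 to 0.15, while FERMT1 spread widely. FERMT1 read 6.71, 7.94 and 8.59 log2 units on aligned fibers 1 to 3, against 6.68, 7.36 and 7.49 on random fibers 1 to 3. The arrays numbered 1 were lowest in both groups, so that most of the spread of FERMT1 lay within the groups, and its difference was 0.57 ± 0.45 (SE, 95% interval -0.48 to 1.62). It was 0.15 without aligned 3, 0.32 without random 1 and 1.09 without aligned 1. With the replicate number as a block FERMT1 reached the unadjusted limit, with an adjusted p of 0.362 in limma.

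The complex of ILK, a pseudokinase that binds beta chains, with its PINCH and parvin partners had 0 genes at the unadjusted limit. ILK read 10.37, 10.38 and 10.36 log2 units on aligned fibers 1 to 3, against 10.42, 10.35 and 10.30 on random fibers 1 to 3. Its values spread by 0.01 (SD) on aligned and 0.06 on random fibers (n = 3 each), and the difference was 0.02 ± 0.07 (SE). The parvin gene PARVA read 8.18, 8.26 and 8.81 log2 units on aligned fibers 1 to 3, against 8.30, 8.26 and 8.49 on random fibers 1 to 3. Aligned 3 stood highest, and the difference of 0.06 ± 0.17 (SE) was -0.13 without it. LIMS2, a PINCH protein, differed by 0.06 ± 0.09.

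The 4 kinases of focal adhesions all had positive differences under 0.15, and 0 reached the unadjusted limit. PTK2 encodes FAK, the kinase recruited by clustered integrins. PTK2 read 9.68, 9.49 and 9.55 log2 units on aligned fibers 1 to 3, against 9.64, 9.44 and 9.43 on random fibers 1 to 3. The groups overlapped, with arrays numbered 1 highest in each. Its difference was 0.07 ± 0.09 (SE, 95% interval -0.14 to 0.28). The partner kinase SRC read 7.49, 7.41 and 7.61 log2 units on aligned fibers 1 to 3, against 7.47, 7.36 and 7.27 on random fibers 1 to 3. Its difference was 0.14 ± 0.09 (SE), or 0.08 without aligned 3, with random 1 between the aligned values. Its relative FYN read 10.30, 9.99 and 10.15 log2 units on aligned fibers 1 to 3, against 10.29, 9.93 and 9.79 on random fibers 1 to 3. The groups overlapped at 0.14 ± 0.14 (SE), and PTK2B, a relative of FAK, differed by 0.08 ± 0.11.

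Adaptors divided. NEDD9, a Cas family scaffold phosphorylated by FAK and SRC, was lower on aligned fibers. NEDD9 read 10.88, 10.62 and 9.82 log2 units on aligned fibers 1 to 3, against 11.15, 11.29 and 11.11 on random fibers 1 to 3. The groups did not overlap, and aligned 3 lay lowest. The difference was -0.74 ± 0.25 (SE, limma adjusted p = 0.463), or 1.67-fold higher on random fibers, and -0.43 without aligned 3. Its relative BCAR1, the founding Cas protein, differed by only 0.05 ± 0.07 (SE), within an interval of -0.12 to 0.21. Paxillin, encoded by PXN, is the adaptor that docks FAK, and it was higher. PXN read 9.23, 9.44 and 9.50 log2 units on aligned fibers 1 to 3, against 9.19, 9.19 and 9.07 on random fibers 1 to 3. Its difference was 0.24 ± 0.09 (SE), with aligned 1 just above the random arrays. The paxillin relative LPXN differed by -0.06 ± 0.12, and the adaptor CRKL by -0.06 ± 0.08. The GIT scaffolds GIT1 and GIT2 differed by 0.12 ± 0.08 and 0.01 ± 0.11, and ARHGEF7, their binding partner, by 0.00 ± 0.08.

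The zyxin family, LIM proteins that sit where stress fibers meet adhesions, had 3 positive differences, 1 of them at the unadjusted limit. ZYX read 9.45, 9.70 and 9.89 log2 units on aligned fibers 1 to 3, against 9.40, 9.42 and 9.32 on random fibers 1 to 3. The groups did not overlap, and the difference was 0.30 ± 0.12 (SE, limma adjusted p = 0.472), or 0.19 without aligned 3. With the replicate number as a block ZYX was just outside the unadjusted limit (limma adjusted p = 0.362). TRIP6 read 10.60, 10.50 and 10.54 log2 units on aligned fibers 1 to 3, against 10.49, 10.34 and 10.46 on random fibers 1 to 3. Its groups did not overlap either, at 0.11 ± 0.08 (SE). LPP differed by 0.13 ± 0.08.

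The differences were unequal between replicate numbers. Between aligned 1 and random 1 the median absolute log2 difference of the 45 genes was 0.08, between the arrays numbered 2 it was 0.08, and between those numbered 3 it was 0.24. Over all genes the 3 medians were 0.07, 0.10 and 0.19. The arrays numbered 3 gave the largest of the 3 differences in 34 of the 45 genes (75.6%), against 67.5% of all genes. In the 11 genes at the unadjusted limit they did so in 11, against 89.7% of all 1303 genes at that limit. Aligned 3 was the extreme array in 11 of the 11, against 83.5% of the 1303. The 3 differences had 1 sign in 10 of the 11, with ITGA5 the exception, and in 97.0% of the 1303. Without aligned 3, ANTXR2, DDR2, ITGAV, ITGB4, ITGB8 and NEDD9 were the 6 of the 11 genes that remained at the unadjusted limit, while ITGA3, ITGA5, PXN, TNS1 and ZYX did not.

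**Figure D3:**
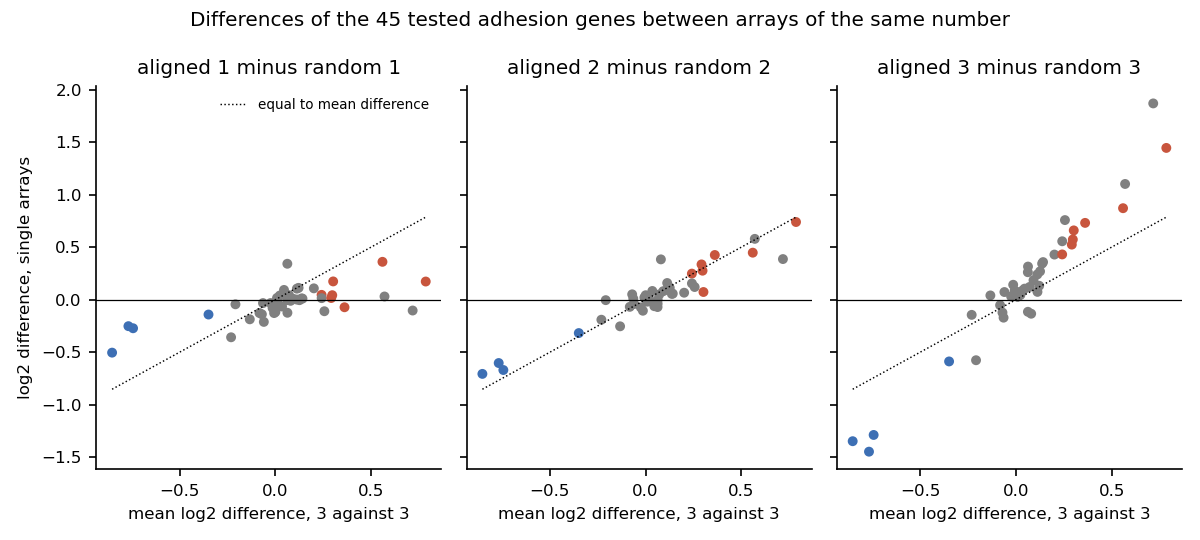
Log2 difference between single arrays of the same number (vertical) against the mean difference of 3 aligned and 3 random arrays (horizontal) for the 45 tested adhesion genes, coloured red (higher) or blue (lower) at an unadjusted p under 0.05. Points lie flatter than the dotted line of equality for the arrays numbered 1 and steeper for those numbered 3, where ITGB3 reaches 1.87.

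Several probe sets read 28 of the tested genes, and in 16 of these all kept probe sets had the same sign. The probe sets of 1 gene share its RNA and arrays and are not replicates. All 3 kept probe sets of ANTXR2 separated the groups, with differences of 0.27 to 0.65, as did all 3 of NEDD9, with -0.74 to -0.47. The 4 of DDR2 differed by 0.42 to 0.79, of which 1, the one used for the gene, separated the groups. In the others aligned 1 lay below random 1. The 4 of ITGB8 differed by -0.77 to -0.39, of which 2 separated the groups. For ITGB4, 3 of 4 were lower without overlap and 1 differed by 0.16. All 5 of ITGB3 were positive, between 0.29 and 0.72. ACTN1 had 4 probe sets, all higher without overlap, at 0.19 to 0.34. ITGAV, ITGA3 and ITGA5 had 1 kept probe set each.

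**Figure D4:**
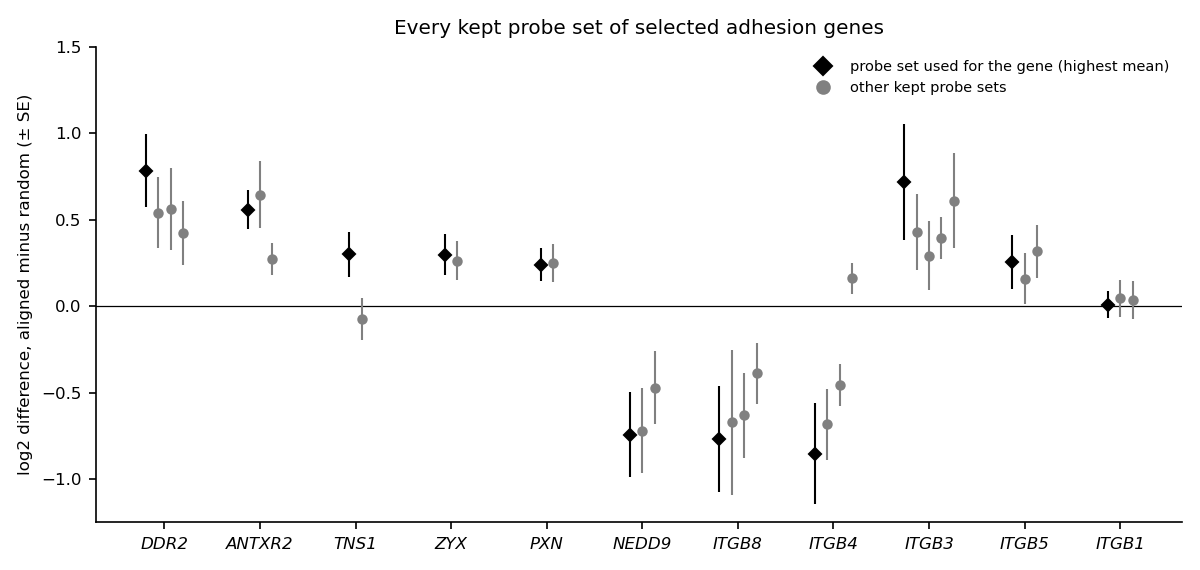
Log2 difference, aligned minus random, with its SE in limma for every kept probe set of the genes at the unadjusted limit that had several, and of ITGB3, ITGB5 and ITGB1. Black diamonds mark the probe set used for the gene. The probe sets of a gene share a sign except in TNS1 and ITGB4.

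Of the other adhesion pathway genes tested, 0 passed the adjusted threshold in limma. Over all 12381 genes, 4.72% were higher and 5.81% lower at the unadjusted limit, or 10.5% in either direction. Of 34 tested genes of focal adhesion proteins outside the 50, 5 were higher and 1 lower at the unadjusted limit. FHL2, a LIM protein that binds integrin tails, differed by 0.53 ± 0.15 (SE), and FBLIM1, the filamin partner migfilin, by 0.44 ± 0.15. KANK2, a talin-binding protein, differed by -0.28 ± 0.08. Of 28 tested matrix ligands, 1 was higher and 1 lower, near the shares over all genes. COL6A3, a chain of collagen VI, differed by 0.79 ± 0.29 (SE), and NID1, which links laminin to collagen IV, by -0.48 ± 0.15. COL6A3 read 9.68 on aligned 3, against 8.46 on aligned 1 and 8.73 on aligned 2. Of 22 tested membrane partners, 2 were higher and 0 lower, in all near the share over all genes. The urokinase receptor gene PLAUR differed by 0.51 ± 0.16 (SE), and SLC3A2, which binds the tails of beta chains, by 0.62 ± 0.21. The groups overlapped in PLAUR, and SLC3A2 read 9.75 on aligned 1, close to 9.73 on random 1. Of the 11 integrin chains outside the 50, 5 were tested, with 0 at the unadjusted limit.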

How the data were processed

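RNA of 6 U251 cultures was hybridised to 1-colour Affymetrix arrays. The values deposited by the authors are log2 signals of probe sets, summarised by RMA per the submitters' processing notes, which name no RMA version. Array medians lay between 5.63 and 5.66. The 62 control probe sets were set aside, and probe sets above the median of their own array on 3 or more of the 6 arrays were kept. Gene names came from the platform annotation, using the 41091 probe sets with 1 symbol (1801 had several, 11721 none), of which 41037 matched RefSeq by gene identifier. Aligned minus random was tested per gene in limma 3.58.1 under R 4.3.3 (lmFit, then eBayes), two-sided, no covariate, over 12381 genes with Benjamini-Hochberg adjustment. The code was tested on simulated data.

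The genes, lists and rules were chosen with earlier results of these data known. Genes named per array were those at an unadjusted p under 0.05, the extremes of each role and 12 fixed genes. From each pathway list up to 3 genes at that limit were named. Results for 1 of the pathway lists are not reported here. Scanner files were not used here, and the number of arrays limits precision. No batch is labelled. Replicate numbers occur in both groups. Deviations from group means correlated by 0.369, 0.322 and 0.109 between equal numbers. Aligned 2 and random 3, of unequal numbers, gave 0.188, above the value for number 3. The data thus did not settle whether the numbers pair the arrays, and the main fit did not use them. The block on the number was an alternative, with others on the filter, normalization, prior, array weights, shrinkage and probe set choice, and each array left out.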

Additional observations from a re-analysis of the deposited data

How the results depend on the processing

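Across 16 alternatives the number of adhesion genes past the adjusted threshold stayed at 0 except with array weights, where 11 passed. That fit gave aligned 2 a weight of 15.2 and aligned 3 one of 0.245, and it called 17.0% of all genes. At the unadjusted limit it counted 21 of the 45 genes, 15 higher and 6 lower. Over all genes the share was 34.9%, with 18% higher and 16.9% lower. The median of the adhesion genes in that fit was 0.0239. The ordinary two-sample test without shrinkage counted 2 at the unadjusted limit, 2 higher and 0 lower, against 6.74% of all genes (3.26% higher, 3.48% lower). Omission of single arrays gave 4 to 14, with 2 to 10 higher and 0 to 4 lower. The 14, without aligned 1, stood against 20.1% of all genes (9.97% higher, 10.1% lower), the 8 without aligned 2 against 8.38% and the 9 without random 1 against 9.67%. Genes without overlap numbered 12 to 22 with an array left out, where fewer arrays separate more easily. The 12 stood against 26.8% of all genes, and the 22 against 40.2% without aligned 1 and 31.2% without random 1. With the replicate number as a block 13.6% of all genes were at the unadjusted limit, 6.32% higher and 7.3% lower. Of the adhesion genes 10 were, 8 of them shared with the 11, and 0 passed after adjustment. ITGA5, TNS1 and ZYX left and FERMT1 and ITGA4 entered. Of 395 recomputed differences of 25 named genes, 16 changed sign, all of genes with a p above the unadjusted limit except TNS1, at -0.0737 when probe sets of shared sequence were left out. In that setting TLN1 was at -0.0100 and FYN at -0.0235, each on another probe set. With array weights ITGB1, TLN1 and PARVA were at -0.0151, -0.0153 and -0.0342. With arrays left out ITGB1 ranged from -0.0224 to 0.0476, TLN1 from -0.0273 to 0.15, VCL from -0.14 to 0.0733, PARVA from -0.13 to 0.18, TNS2 from -0.14 to 0.00184 and ILK from -0.0144 to 0.0464. Where no construction is named, the cause was not tested. Signal near background could not be judged without detection calls.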

Other observations

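Some probe sets outside those used for the genes differed from those used, and are named here after their values were seen. One of 6 kept LPP probe sets differed by -0.30 without overlap, against 0.13 for the one used, and 1 of 3 for GIT2 by 0.24 without overlap, against 0.01. Of 6 for ANTXR1, 3 were lower on aligned fibers without overlap, down to -0.33, and 1 was higher, by 0.21. All 3 kept probe sets of FERMT1 read lowest on aligned 1 among the aligned arrays. ITGAE, a chain outside the 50 known from lymphocytes, averaged 11.28 ± 0.07 log2 units on aligned fibers, against 11.37 ± 0.14 on random ones (SD over 3 arrays each).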
